A study of Mus musculus with 12 samples.

Results

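The 10 genes described here encode cytosolic HSP90 and HSP70 chaperones and close partners, and they were taken by gene symbol from tables of all genes. Both cytosolic HSP90 genes (Hsp90aa1, Hsp90ab1), 2 of the HSP70 genes (Hspa8, Hspa1b) and all 3 HSP110 genes (Hspa4, Hspa4l, Hsph1) are in the set. So are 2 J proteins (Dnaja1, Dnajb1) and the transcription factor Hsf1. All 10 were found, out of 52287 symbols that both deposited tables hold. The set was chosen by the scaled counts of Hsp90aa1, which stands among the largest differences between rod messages and whole retina messages. That contrast is therefore given as a description for all 10 genes in control mice, and for Hsp90aa1 in the knockouts too.

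The study sequenced polyA RNA from retinas of 2-month-old mice, with 3 libraries in each of 4 groups. Control mice were RiboTag;i75-Rod-Cre littermates (Abca4+/+), and knockout mice were RiboTag;Abca4-/-;i75-Rod-Cre, here called Abca4Ko. ABCA4 is the outer segment flippase that clears retinal by-products from the disc membrane. All animals, controls included, carried a rhodopsin-driven Cre that tags ribosomes in rods, and all were perfused with cycloheximide to stop ribosomes from leaving the message. Rod TRAP libraries came from messages pulled down with the tagged ribosomes, and retina libraries came from the total tissue lysate before the pull-down. The labels do not say that replicates are separate animals, so p-values measure the spread between these libraries, which may be technical.

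HSP90 is a dimeric, ATP-driven chaperone that finishes the folding of a select set of proteins, among them kinases, steroid receptors and, through the photoreceptor co-chaperone AIPL1, the rod phosphodiesterase PDE6. HSP70 proteins bind exposed hydrophobic stretches of proteins that are not yet folded. J proteins deliver those proteins and start the ATP cycle of HSP70, and HSP110 proteins release the spent nucleotide. HSF1 is the transcription factor that raises many of these genes after heat or other protein damage, and chaperones restrain it when the cell is unstressed. Hsp90aa1 and Hspa1b are the classic inducible members, whereas Hsp90ab1 and Hspa8 are made constitutively in most tissues.

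Levels are given as TPM (transcript abundance corrected for transcript length and scaled to the same total in each library) when genes are compared with each other. Tests use the scaled counts, which are read counts that the authors brought to a common total within each fraction. Abca4 itself was checked first. The scaled counts of Abca4 were 61017, 53193 and 53533 in control rod TRAP, and 195, 365 and 13156 in Abca4Ko rod TRAP replicates 1 to 3. In retina they were 38929, 37619 and 38090 in controls, and 153, 366 and 8124 in knockouts. The library labelled Abca4Ko replicate 3 thus held Abca4 message in both fractions, and results are given with and without it where they depend on it. All 12 rod markers were higher in rod TRAP in both genotypes, and summed Müller glia markers were 97.27 to 174.8 CPM (counts as a share of the library total, on a common scale) in rod TRAP against 3651 to 5690 CPM in retina.

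Several members have near-identical copies elsewhere in the genome, mostly processed pseudogenes, which are messages that were copied back into the genome. The reads of a member and its copy cannot be told apart over identical stretches, and how the authors placed such reads is not given in the sources used here. Coding bases 1070 to 1129 of Hsp90aa1 and the matching stretches of its paralog and its copies follow, because they show which genes can share reads. They are from GENCODE M21, in lower case, with capitals at the bases that differ from Hsp90aa1.
Hsp90aa1: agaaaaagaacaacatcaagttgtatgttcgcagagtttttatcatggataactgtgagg
Gm12346: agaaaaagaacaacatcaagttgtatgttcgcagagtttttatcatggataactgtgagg
Gm5844: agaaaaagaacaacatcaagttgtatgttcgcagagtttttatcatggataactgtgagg
Hsp90ab1: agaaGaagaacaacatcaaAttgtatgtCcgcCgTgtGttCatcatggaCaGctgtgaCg

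Hsp90ab1 differed from Hsp90aa1 at 10 of these 60 bases, and the coding sequences of the pair were 76.1% identical, so the 2 HSP90 genes are separable. The pseudogenes Gm12346 and Gm5844 differed at 0 of the 60 bases and were 99.5% and 98.5% identical over the coding length. In GRCm38, Hsp90aa1 lies on chr12:110690605-110702728 (minus strand), Gm12346 on chr11:77293444-77295898 and Gm5844 on chr3:18008806-18010996. Gm12346 held 11.4 to 12.5% of the Hsp90aa1 value in every library of the scaled counts, but 0.142 to 0.571% of it in TPM. The share was close to constant, and adding both copies to Hsp90aa1 left its differences within 0.03 on the log2 scale in all 5 comparisons. The copies of Dnaja1 (Gm15542, Gm7816 and Gm6335) together held 9.55 to 13.3% of the sum of gene and copies. Hspa1b with Hspa1a, and Hspa8 with the 9 copies that are in the scaled counts, had larger shares and are described with those genes.

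RefSeq promoters of GRCm38.p6 (250 bases before to 50 after the start) were available for 6 of the 10 members: Hspa1b, Hspa4, Hspa4l, Hsph1, Dnaja1 and Dnajb1. They were searched on both strands for the paired heat shock motif, which is GAA and TTC, or TTC and GAA, with 2 bases of any kind between them, and which 15.056% of 32851 promoters hold. The 3-unit motif adds another GAA or TTC in turn after 2 more bases, so it contains both paired motifs, and 0.603% of promoters hold it. The stretches below are from the members with a match, with the matching letters in capitals.
Hspa1b: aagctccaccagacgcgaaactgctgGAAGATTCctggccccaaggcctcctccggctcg
Dnaja1: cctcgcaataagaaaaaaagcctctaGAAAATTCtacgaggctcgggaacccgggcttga
Hsph1: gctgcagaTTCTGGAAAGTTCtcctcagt

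The Hspa1b match began 104 bases before the start in the promoter at chr17:34959189-34959488 (minus strand), and the promoter of its neighbour Hspa1a held the same stretch at the same distance. The Dnaja1 match began 124 bases before the start of 1 of its 3 promoters, at chr4:40722218-40722517 (plus strand). Hsph1 was the only one of the 6 with the 3-unit motif, which began 15 or 36 bases after its 2 listed starts (chr5:149636266-149636565 and chr5:149636287-149636586, minus strand). Each Hsph1 window held 3 paired matches in all, and not all of them lie in the printed stretch. The windows of Hspa4, Hspa4l and Dnajb1 held no match. A match is a description of letters and does not show that HSF1 binds there.

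In rods, the chaperone messages were dominated by Hsp90aa1. Its level was 2567.3, 2773.1 and 2603.9 TPM in control rod TRAP, and 2717.4, 2663.1 and 2961.4 TPM in Abca4Ko rod TRAP. The 10 members together made up 0.393 to 0.474% of all TPM in rod TRAP, and Hsp90aa1 was 61.1 to 66.3% of that sum. In retina it was 8.77 to 23.1% of a member sum of 0.132 to 0.209%.

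The order of mean TPM in control rod TRAP was Hsp90aa1, Hspa8, Hspa4l, Hsp90ab1, Hspa4, Dnaja1, Hspa1b, Dnajb1, Hsph1 and Hsf1. Neighbours in this order did not overlap, except that Hspa4, Dnaja1 and Hspa1b overlapped in turn (means of 104.8 ± 19.2, 97.33 ± 8.08 and 94.57 ± 6.56 TPM, SD, n = 3 each). The control retina had a different order, led by Hspa8 (855.0 ± 129 TPM), Hsp90ab1 (328.7 ± 51.6 TPM) and Hsp90aa1 (151.8 ± 33.8 TPM), and then Dnaja1. Below these, Dnajb1 overlapped with Dnaja1, and from Hspa1b through Hsf1, Hspa4 and Hspa4l to Hsph1 each gene overlapped with the next. Hspa4l thus stood behind Hsp90aa1 and Hspa8 in rods and next to last in the control retina. The knockout rods kept the order of the first 4 genes (2781 ± 159, 848.1 ± 83.9, 237.8 ± 20.2 and 154.2 ± 5.95 TPM), whereas in knockout retina Hsp90ab1 (320.9 ± 80.9 TPM) and Hsp90aa1 (295.5 ± 75.4 TPM) overlapped.

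**Figure D1:**
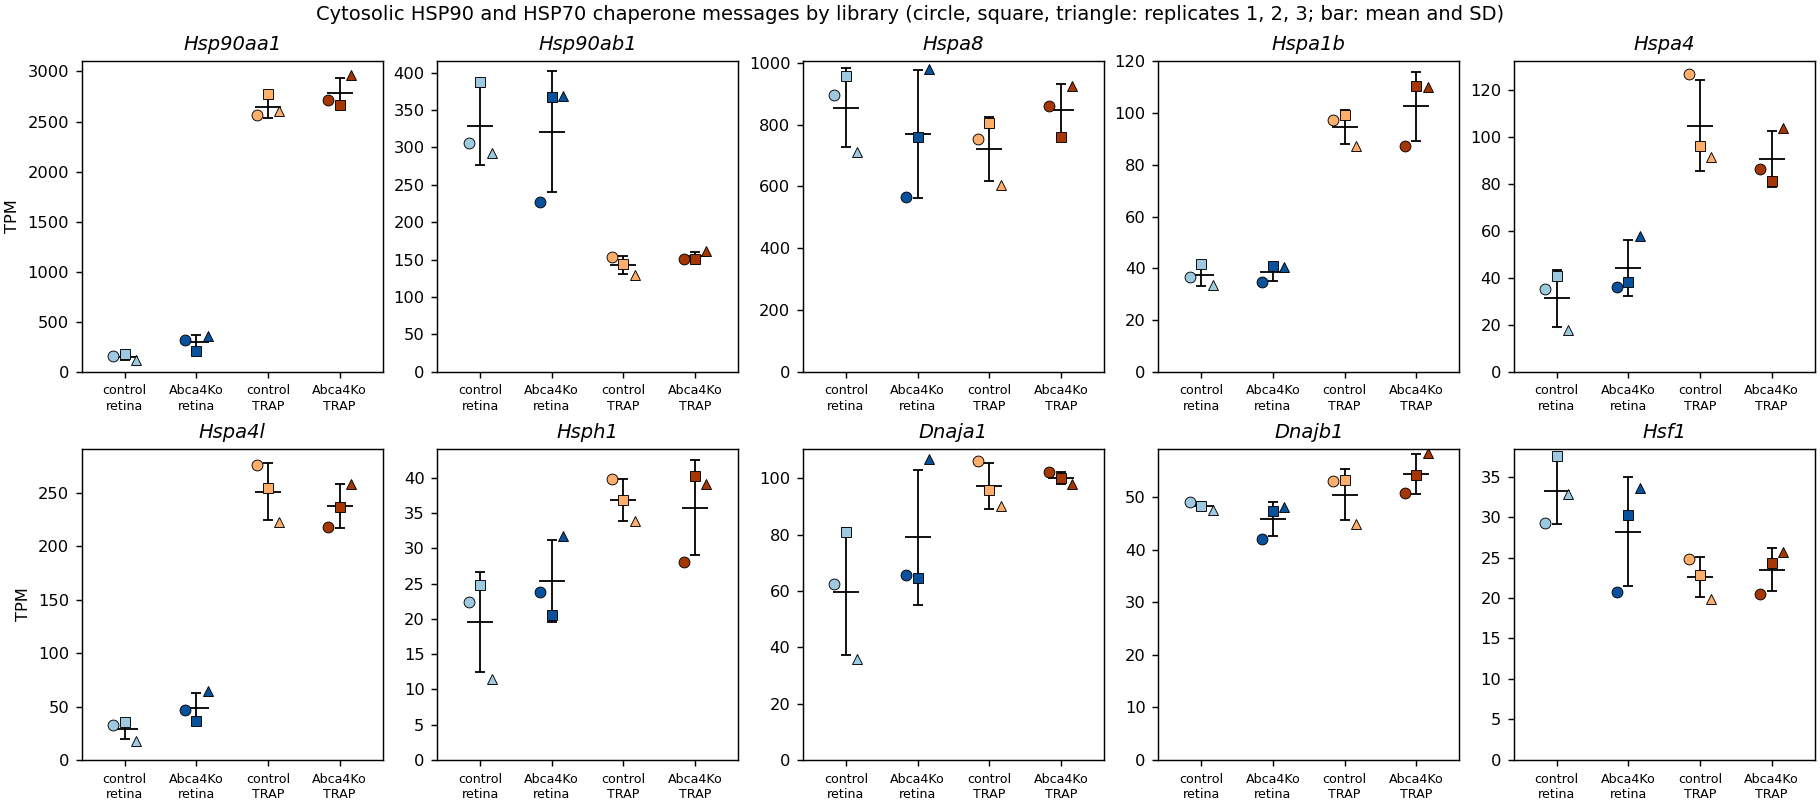
TPM of each member in every library, with 1 panel per gene, the 4 groups on the x axis, replicates 1 to 3 as circle, square and triangle, and the mean and SD as bars (all y axes start at 0). Hsp90aa1, Hspa4l, Hspa4 and Hspa1b lie higher in all rod TRAP libraries than in any retina library, and Hsp90ab1 lies lower.

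The 2 HSP90 genes went opposite ways between the fractions. Hsp90aa1 had 49020, 49888 and 46739 scaled counts in control rod TRAP against 4444, 4287 and 3284 in control retina, and 53553, 50722 and 53493 against 8902, 5307 and 8207 in the knockouts. Rod TRAP exceeded retina in every library, by a log2 difference of 4.32 in controls (19.9-fold, SE 0.127), which ranked 4 of 16286 genes. In the knockouts it was 3.45 (10.9-fold, SE 0.236), which ranked 5 of 16036. These values chose the gene and carry no test.

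Hsp90ab1 had 3197, 3024 and 2750 scaled counts in control rod TRAP and 8655, 9918 and 8338 in control retina, a log2 difference of -0.87. In Abca4Ko rod TRAP it had 3514, 3119 and 3421 against 6954, 10026 and 9494 in Abca4Ko retina, and all rod TRAP libraries were lower. The knockout difference of Hsp90ab1 was -0.78 (SE 0.152, limma adjusted p = 0.00101). The set was chosen by the values of Hsp90aa1, but with earlier results of these data known. In retina lysate, fewer cells of a type and less RNA per cell cannot be told apart.

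**Figure D2:**
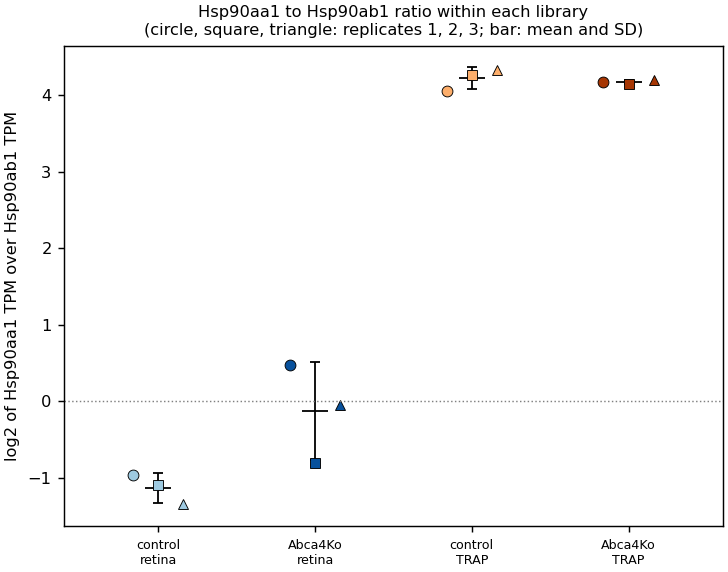
Log2 of the ratio of Hsp90aa1 TPM to Hsp90ab1 TPM in each library (y axis), for the 4 groups (x axis), with replicates 1 to 3 as circle, square and triangle and the mean and SD as bars. The 6 rod TRAP libraries lie between 4.06 and 4.33, and the retina libraries between -1.34 and 0.48.

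Within a library, the ratio of the 2 HSP90 messages does not depend on library scaling. The ratio of Hsp90aa1 to Hsp90ab1 TPM was 16.7, 19.2 and 20.1 in control rod TRAP and 18.0, 17.7 and 18.4 in Abca4Ko rod TRAP. In retina it was 0.516, 0.47 and 0.395 in controls and 1.4, 0.576 and 0.969 in knockouts. All 3 knockout retinas lay above all 3 control retinas. The mean log2 ratio was 1.01 higher there in the knockouts (exact permutation test, two-sided, p = 0.1, the smallest that 20 assignments allow), and 0.05 lower in rod TRAP (p = 0.6 by the same exact test). The ratio was not corrected for base composition, and coding GC content was 43.43% in Hsp90aa1 and 51.15% in Hsp90ab1. With values centred within bins of equal GC content, their retina genotype differences were 0.41 and -0.09, beside 0.88 and -0.03 without centring.

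In control mice, 5 of the 10 members were at least 2-fold higher in rod TRAP than in retina, and 0 were 2-fold lower. Of all genes, 21% were at least 2-fold higher and 28.2% at least 2-fold lower. The 5 were Hsp90aa1, Hspa4l (log2 difference 3.67), Hspa4 (1.82), Hspa1b (1.58) and Hsph1 (1.24). Dnaja1 lay just outside at 1.00, which was 0.999 before rounding. Then followed Dnajb1 at 0.38, Hspa8 at 0.04, Hsf1 at -0.22 and Hsp90ab1 at -0.87. The median over the members was 1.12, beside -0.03 over all genes tested. Without control retina replicate 3, Hsp90ab1 (-1.03) passed the 2-fold limit on the lower side and Hsph1 (0.92) did not reach it on the higher. With the authors' scaling only, Hsp90aa1 (3.67), Hspa4l (3.02) and Hspa4 (1.18) were past the limit on the higher side and Hsp90ab1 (-1.52) on the lower. With values centred within bins of equal coding GC content, 3 were past it on the higher side, Hsp90aa1 (2.67), Hspa1b (2.54) and Hspa4l (2.02). On the lower side were 2, Hsp90ab1 (-1.11) and Dnaja1 (-1.06), while Hspa4 was 0.54 and Hsph1 0.29. The shares of 21% and 28.2% of all genes were not counted again under these alternatives. The median of all genes was 0.12 without control retina replicate 3, -0.62 with the authors' scaling only and 0 with GC centring.

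In knockout mice, 8 of the 9 members that could be tested differed between rod TRAP and retina, 7 of them higher and 1 lower in rod TRAP. At the same threshold (limma adjusted p under 0.05), 30.4% of all genes were higher and 33.7% lower. The median log2 difference of all 10 members was 0.67, against 0.00 for all genes. That median includes Hsp90aa1, which chose the set, and is a description only.

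Among the HSP70 genes, Hspa1b, an inducible HSP70, had 1886, 1927 and 1717 scaled counts in control rod TRAP and 1016, 1023 and 963 in control retina. Abca4Ko rod TRAP held 1808, 2131 and 2183, and Abca4Ko retina 988, 1072 and 1001. The fractions did not overlap in either genotype, and the knockout log2 difference was 1.59 (SE 0.147, limma adjusted p = 4.42e-06). Hspa1a, the neighbouring gene with a 99.4% identical coding sequence, moved alike (1.46, limma adjusted p = 1.2e-05). The division of reads between these 2 genes is uncertain, and the Hspa1b difference with Hspa1a added was 1.53.

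Hspa8, the constitutive HSC70 that also strips clathrin from vesicles, was the most abundant member in retina. It had 10186, 9664 and 7811 scaled counts in control rod TRAP and 15522, 14963 and 13261 in control retina. Abca4Ko rod TRAP held 14668, 10775 and 12680, and Abca4Ko retina 11873, 14593 and 15433, so the knockout fractions overlapped. The knockout difference was 0.46 (SE 0.173, limma adjusted p = 0.0363) after rescaling of the libraries, and -0.08 with the authors' scaling only.

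The HSP110 genes were all higher in rods. Hspa4l, an HSP110 gene best known from the testis, had 12074, 11420 and 10205 scaled counts in control rod TRAP and 1757, 1713 and 973 in control retina. In the knockouts these were 8792, 10402 and 11175 against 2594, 1835 and 2745. Each rod TRAP library held over 3 times the value of any retina library. The knockout log2 difference was 2.69 (6.47-fold, SE 0.198, limma adjusted p = 9.39e-07).

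Hspa4 (APG-2) had 3279, 3198 and 2728 scaled counts in control rod TRAP and 1623, 1746 and 978 in control retina. Knockout values were 3215, 3050 and 3418 in rod TRAP and 1670, 1720 and 2636 in retina, again without overlap, and differed by 1.31 (SE 0.163, limma adjusted p = 3.86e-05). Hsph1 (HSP105), the lowest of the 3, had 947, 879 and 891 against 720, 717 and 462 in controls and 929, 975 and 1079 against 710, 800 and 995 in knockouts. The highest Hsph1 retina value lay inside the rod TRAP range of the knockouts, and the log2 difference was 0.86 (SE 0.139, limma adjusted p = 0.000273).

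The J proteins differed less. Dnaja1, a farnesylated class A J protein, had 1486, 1411 and 1316 scaled counts in control rod TRAP and 1271, 1423 and 824 in control retina. Knockout values were 1467, 1355 and 1387 in rod TRAP and 1427, 1409 and 2040 in retina, so the fractions overlapped in both genotypes. The fitted knockout difference was 0.41 (SE 0.153, limma adjusted p = 0.036). Dnajb1 (HSP40), the stress-inducible class B partner, had 1352, 1361 and 1165 against 1712, 1506 and 1658 in controls, and 1449, 1370 and 1506 against 1582, 1581 and 1532 in knockouts, where it differed by 0.48 (SE 0.147, limma adjusted p = 0.0145). Rod TRAP was below retina for Dnajb1 in the scaled counts as deposited, and above it after the rescaling.

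Hsf1 was the least abundant member in rods. It had 398, 376 and 333 scaled counts in control rod TRAP, 644, 768 and 705 in control retina, 366, 391 and 417 in Abca4Ko rod TRAP and 515, 640 and 632 in Abca4Ko retina. The rod TRAP values were all lower as deposited. After rescaling, the knockout difference was 0.00 (SE 0.142, 95% interval -0.31 to 0.32, limma adjusted p = 0.991).

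**Figure D3:**
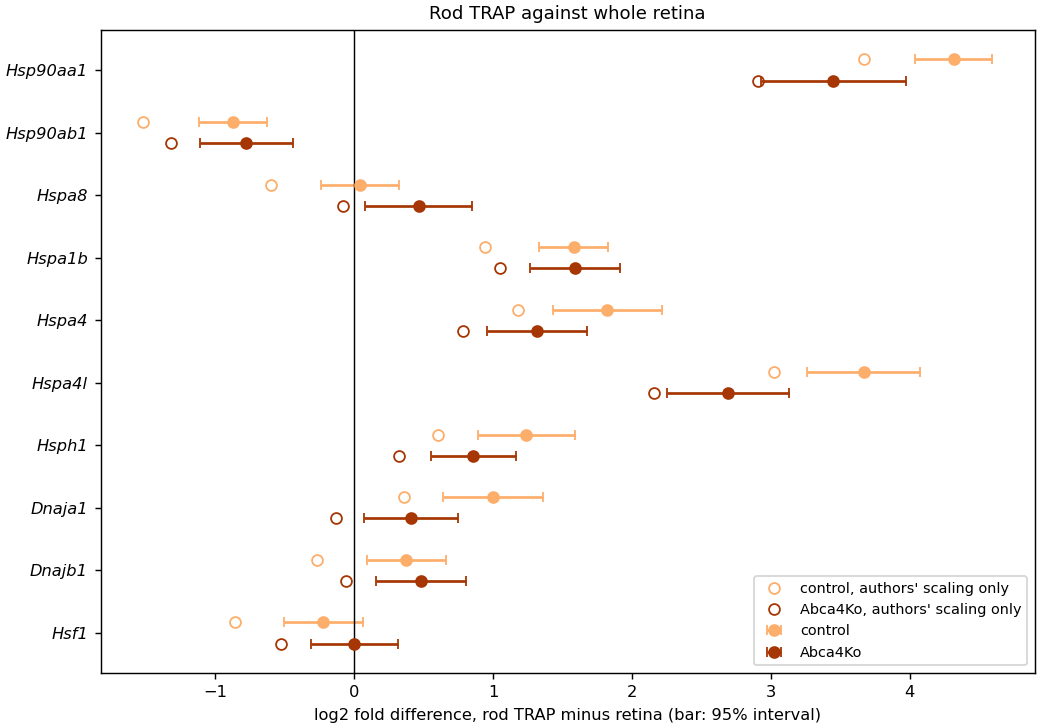
Log2 difference of each member between rod TRAP and retina (x axis) in control (light) and Abca4Ko mice (dark). Filled points and bars are the fitted value and 95% interval after rescaling, and open points are the values with the authors' scaling only, which lie to the left for every member, as they do for the median of all genes.

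The size of the fraction differences depends on how the libraries are scaled. With the authors' scaling only, the median of all genes moved from 0.00 to -0.49 in knockouts and from -0.03 to -0.62 in controls, and the share of higher genes among those called in knockouts fell from 47.4% to 22.6%. Under that scaling the knockout values of Hspa8 (-0.08), Dnaja1 (-0.13) and Dnajb1 (-0.06) changed sign and were not called, Hsph1 was 0.32 (limma adjusted p = 0.105), and Hsf1 was lower in rod TRAP (-0.53, limma adjusted p = 0.0143). Hspa4l (2.16), Hspa1b (1.05), Hspa4 (0.78) and Hsp90ab1 (-1.32) kept their direction and their call. All of these values except that of Hsp90ab1 and Hsf1 lay above the median of all genes on that scale.

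Base composition also moved with the fractions. With genes split by coding GC content into 5 equal groups, the group of lowest GC had a median log2 difference of 0.96 between knockout rod TRAP and retina, and that of highest GC -0.66. Coding GC content was 42.74% in Dnaja1, 43.43% in Hsp90aa1, 44.35% in Hspa4l, 44.77% in Hspa4 and 46.81% in Hsph1, which all belong to the group of lowest GC, 51.15% in Hsp90ab1, 58.25% in Hsf1 and 65.32% in Hspa1b, at the other end. With values centred within bins of equal GC content, the knockout differences were 2.37 for Hsp90aa1, 2.50 for Hspa1b (limma adjusted p = 7.16e-07), 1.61 for Hspa4l (1.41e-05), 0.50 for Hspa4 (0.0118) and -0.97 for Hsp90ab1 (0.000348). Dnaja1 turned to -0.67 (limma adjusted p = 0.00181), Hsf1 became higher at 0.33 (0.0341), and Hsph1 (0.25, 0.0933) and Hspa8 (0.15, 0.468) were not called. With the replicate number as a block in the same fit, Hsph1 was called (0.25, limma adjusted p = 0.0427) and Hspa8 was not (0.15, 0.374). Dnajb1 stayed higher at 0.61 (limma adjusted p = 0.0031).

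Leaving out any 1 of the 6 knockout libraries, the 5 members Hsp90ab1, Hspa1b, Hspa4, Hspa4l and Hsph1 were called each time. Hspa8, Dnaja1 and Dnajb1 were not steady. Without the rod TRAP library labelled Abca4Ko replicate 3 they were 0.47, 0.43 and 0.46 (limma adjusted p = 0.11, 0.087 and 0.0621), and without the retina library of that number Hspa8 was 0.47 (0.0668), Dnajb1 0.39 (0.0506) and Dnaja1 was still called. Without rod TRAP replicate 1, Hspa8 was 0.34 (limma adjusted p = 0.154) and Dnaja1 0.36 (0.0975), and without rod TRAP replicate 2, Dnaja1 was 0.44 (0.0827). Without retina replicate 1, Hspa8 was 0.35 (limma adjusted p = 0.131) and Dnaja1 0.33 (0.172), and without retina replicate 2 they were 0.48 (0.0816) and 0.30 (0.121).

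The comparison of Abca4Ko with control mice asked whether the loss of ABCA4 altered the chaperone messages at 2 months. In rod TRAP, 0 of the 10 members were called, beside 1.13% of 13104 genes (limma adjusted p under 0.05). At an unadjusted p under 0.05 there was 1 member, Hspa8, and 1368 genes in all (10.4%). The fitted differences of the other members ran from -0.14 (Hspa4l, 95% interval -0.35 to 0.06) to 0.17 (Hsp90ab1, -0.04 to 0.39). For Hsp90aa1 the difference was 0.12 (95% interval -0.07 to 0.32), and the 95% intervals of these 9 members lay between -0.35 and 0.39. The genotype comparisons use the same libraries as the fraction comparisons above.

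Hspa8 was 0.47 higher in Abca4Ko rod TRAP (SE 0.145, 95% interval 0.15 to 0.79, limma adjusted p = 0.237). All 3 knockout libraries lay above all 3 controls in scaled counts, with 10775 as the lowest knockout and 10186 as the highest control value. In TPM the groups overlapped, at 858.6, 759.4 and 926.2 in knockouts against 753.8, 804.5 and 603.3 in controls. Under 15 alternatives it lay between 0.24 and 0.74, with a limma adjusted p of 0.0662 to 0.671. In scaled counts 3 of 10 members were higher in rod TRAP without overlap of the groups (Hsp90aa1, Hspa8 and Dnajb1) and 0 lower, beside 8.19% of all genes higher and 7.96% lower, and in TPM the groups overlapped for all 10.

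A near-identical copy of Hspa8 did differ between the genotypes. Gm15459, a processed pseudogene on chr5:5781615-5783555 (minus strand, GRCm38), is 99.7% identical to the coding sequence of Hspa8, which lies on chr9:40800984-40810087 (plus strand). A noncoding RNA gene, Gm26825, covers the same bases on the other strand (chr5:5781530-5783636) and has no entry in the scaled counts. Whether its reads were counted as Gm15459 was not tested. Over the 1938 coding bases it differs from Hspa8 by 5 substitutions, counted from 1 at the start codon and written with the Hspa8 base first: G114A, C414T, C549T, G1222A and C1440T. Coding bases 55 to 114 of both, with the first of these in capitals, show how little separates them.
Hspa8: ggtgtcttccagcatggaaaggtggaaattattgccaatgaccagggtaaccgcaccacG
Gm15459: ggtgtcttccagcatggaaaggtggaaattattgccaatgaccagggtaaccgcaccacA

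Gm15459 reached 398.0, 274.2 and 221.2 TPM in Abca4Ko rod TRAP against 6.0, 6.4 and 6.0 TPM in the controls. In retina it was 205.2, 244.5 and 176.7 in knockouts and 6.4, 5.5 and 4.3 in controls. The library labelled Abca4Ko replicate 3 was the lowest of its group in both fractions but lay with the other knockouts and far above every control. As a share of Hspa8 TPM, Gm15459 was 18.1 to 46.4% in the 6 knockout libraries and 0.574 to 0.995% in the 6 controls.

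In scaled counts the contrast was smaller. Gm15459 had 6644, 4286 and 4041 in Abca4Ko rod TRAP against 1616, 1595 and 1193 in control rod TRAP, and 4755, 5376 and 4487 in Abca4Ko retina against 2420, 2397 and 1986 in control retina. The log2 difference in rod TRAP was 1.75 (SE 0.23, limma adjusted p = 0.0184) and in retina 1.11 (SE 0.17, limma adjusted p = 0.0572). On log2(TPM + 1) it was 5.35 in rod TRAP (SE 0.19, limma adjusted p = 2.5e-06, where 0.386% of 11667 genes were called) and 5.04 in retina (SE 0.22, limma adjusted p = 2.51e-07, where 0.228% of 14925 genes were called). The scaled count call in rod TRAP was lost without control replicate 1 (limma adjusted p = 0.0583) or control replicate 2 (0.0626), whereas the TPM call held without any 1 library in both fractions. Without the library labelled Abca4Ko replicate 3 the scaled count differences were 1.90 for rods (limma adjusted p = 0.0225) and 1.22 for whole retina (0.0334). Gm8355, another processed pseudogene of Hspa8 (98.7% identical), was also higher in rod TRAP scaled counts (1.07, SE 0.18, limma adjusted p = 0.02), at 0.0 to 0.5 TPM in all libraries.

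With Gm15459 added, Hspa8 came to 1256.6, 1033.6 and 1147.4 TPM in knockout rods against 759.8, 810.9 and 609.3 in controls, so that the groups no longer overlapped. In retina the sums did overlap, at 770.0, 1005.3 and 1155.3 TPM against 903.4, 963.3 and 714.5. With all 9 copies that are in the scaled counts added to Hspa8, the difference in rod TRAP was 0.74 (limma adjusted p = 0.0662) and in retina 0.18 (0.633). Which of the near-identical loci the reads came from was not tested.

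**Figure D4:**
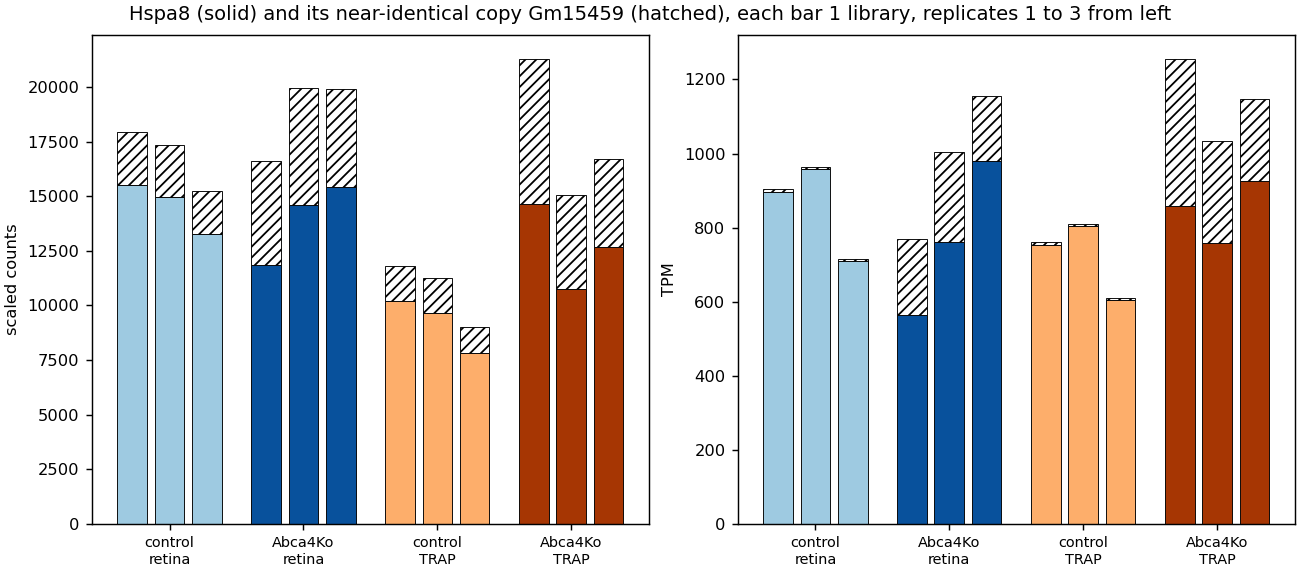
Scaled counts (left panel, y axis) and TPM (right panel, y axis) of Hspa8 (solid) and Gm15459 (hatched, stacked on top) with 1 bar per library and the 4 groups on the x axis. The hatched part is 18.1 to 46.4% of the solid part in TPM in the Abca4Ko bars and under 1% in the control bars, in both fractions.

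In retina, 0 of the 10 members were called between the genotypes, beside 0.106% of 16964 genes. Here 3 members had an unadjusted p under 0.05, against 2034 genes (12%) in all. Hsp90aa1 had 8902, 5307 and 8207 scaled counts in Abca4Ko retina and 4444, 4287 and 3284 in control retina. Each knockout value lay above each control value, in TPM too (318.1, 211.4 and 357.1 against 157.7, 182.2 and 115.4). The log2 difference was 0.88 (1.84-fold, SE 0.245, 95% interval 0.34 to 1.42), with an unadjusted limma p of 0.00479 and a limma adjusted p of 0.4. Under 15 alternatives it lay between 0.41 and 1.14, with a limma adjusted p of 0.0662 to 0.937.

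Hspa4l was the other member whose retina groups did not overlap on the higher side, with a difference of 0.72 (SE 0.256, limma adjusted p = 0.4). The third with an unadjusted limma p under 0.05 was Dnaja1 at 0.49 (SE 0.214, limma adjusted p = 0.409). Hspa4 was 0.48 and Hsph1 0.41 higher (limma adjusted p = 0.419 and 0.422), and Hsf1 was 0.24 lower without overlap in scaled counts (limma adjusted p = 0.499). In all, 2 of 10 members were higher and 1 lower without overlap in scaled counts, beside 9.39% and 7.56% of all genes. Hsp90ab1 (-0.03), Hspa8 (-0.06), Hspa1b (0.03) and Dnajb1 (-0.05) were close to 0, with 95% intervals inside -0.44 to 0.37.

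**Figure D5:**
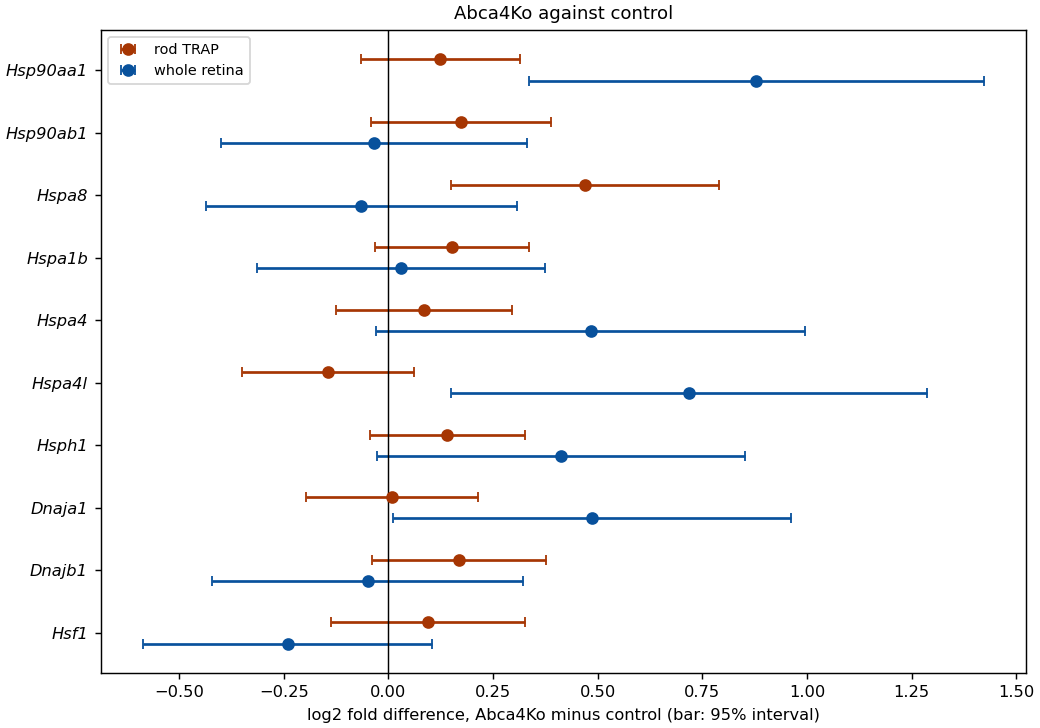
Log2 difference of each member between Abca4Ko and control mice (x axis) in rod TRAP and in whole retina, with 95% intervals as bars. Rod TRAP values lie between -0.14 and 0.47, and retina values reach 0.88 for Hsp90aa1 with wider intervals.

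Control retina replicate 3 had the lowest value of all 12 libraries for Hsp90aa1, Hspa4, Hspa4l, Hsph1 and Dnaja1. Without it the retina differences were 0.77 for Hsp90aa1, 0.47 for Hspa4l, 0.28 for Dnaja1, 0.25 for Hspa4 and 0.23 for Hsph1 (limma adjusted p = 0.937 each). Without the retina library labelled Abca4Ko replicate 3, Hsp90aa1 was 0.85 and Hspa4l 0.67, and neither was called.

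The retina genotype difference followed base composition across genes. The group of lowest coding GC content had a median of 0.43 and that of highest GC -0.21 (Spearman's rho across genes -0.58, genes not being independent), whereas in rod TRAP the 5 groups lay between -0.03 and 0.02. The 5 members with the largest retina differences were the 5 with the lowest GC content. With each library centred within bins of GC content, Hsp90aa1 differed by 0.41 (limma adjusted p = 0.643), Hspa4l by 0.25 (0.689), Hsph1 by 0.12 (0.822), Hspa4 by 0.02 (0.985) and Dnaja1 by -0.01 (0.987). The part of base composition in these differences was not tested beyond this.

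Of the immediate-early genes, which rise within minutes of handling or stress, Egr1 was higher in Abca4Ko retina (log2 difference 1.92, SE 0.25, limma adjusted p = 0.0214), at 1739, 2745 and 3377 scaled counts against 787, 830 and 444. In Abca4Ko rod TRAP it was 1381 in replicate 1 and 83 and 108 in the others, and of the 21 genes of the list 1 of 20 tested was called in retina and 0 of 15 in rod TRAP. Their summed level was 551.9 to 828.9 CPM in Abca4Ko retina and 538.2 to 554.4 CPM in control retina, with overlap, and the median log2 difference of those tested was 0.13. In rod TRAP it was 327.7 to 419.5 CPM in Abca4Ko and 284.4 to 309.1 CPM in controls, without overlap, and the median was 0.25. At an unadjusted limma p under 0.05 were 6 of 20 in retina and 5 of 15 in rod TRAP, beside 12% and 10.4% of all genes. Hspa1b, a textbook heat shock gene, had 988, 1072 and 1001 scaled counts in Abca4Ko retina and 1016, 1023 and 963 in controls, with overlap. Summed blood markers were 75.13 to 139.0 CPM in Abca4Ko retina and 103.0 to 261.1 CPM in controls, and summed pigment epithelium markers 82.08 to 292.0 CPM and 200.4 to 516.9 CPM, with 0 genes of either list called. Summed cone markers were 369.5 to 448.0 CPM in Abca4Ko rod TRAP and 285.7 to 307.6 CPM in controls, with 1 of 8 called. Their part in the member values was not tested.

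The interaction, which asks whether the genotype difference is unlike in rods and retina, was called for 0 of 10 members, beside 0.00579% of 17273 genes (limma adjusted p under 0.05). At an unadjusted p under 0.05 it held 3 members and 1952 genes (11.3%). For Hsp90aa1 the genotype difference in rod TRAP minus that in retina was -0.78 (SE 0.28, 95% interval -1.38 to -0.18, limma adjusted p = 0.407), for Hspa4l -0.89 (SE 0.303, limma adjusted p = 0.407) and for Hspa8 0.51 (SE 0.212, limma adjusted p = 0.418). Under 22 alternatives the limma adjusted p lay between 0.0926 and 0.852 for Hsp90aa1 and between 0.113 and 0.852 for Hspa4l. That the genotype difference is unlike in rods and retina was thus not established for any member, and that it is alike was not shown either.

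The summed TPM of the 10 members was 3926.5 to 4380.9 in control rod TRAP and 4220.0 to 4742.4 in Abca4Ko rod TRAP. In retina it was 1315.3 to 1837.2 in controls and 1379.9 to 2087.1 in knockouts. The ranges overlapped in both fractions (exact permutation test, two-sided, p = 0.4 in rod TRAP and p = 0.7 in retina).

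The partners of these chaperones were examined as 8 lists of 83 genes. In the knockout fraction comparison 44 of 80 tested genes were higher and 11 lower in rod TRAP, with a median log2 difference of 0.50 beside 0.00 for all genes, of which 30.4% were higher and 33.7% lower. With the authors' scaling only, 23 were higher and 28 lower (14.2% and 48.7% of all genes), and with GC centring 41 were higher and 19 lower (31.9% and 33.7% of all genes), or 47 and 20 with the replicate block as well (36.7% and 36.5%). Of the 21 HSP90 co-chaperones, 10 were higher and 1 lower (median 0.29). The largest were Chordc1 (1.31, limma adjusted p = 0.000319), Aipl1 (1.22, 0.00105), whose product chaperones PDE6 in photoreceptors, and Ahsa2 (1.13, 0.000765), a relative of the ATPase activator AHA1. Chordc1 was -0.12 with GC centring (limma adjusted p = 0.527), and the list had 6 higher and 9 lower with the authors' scaling only and 10 higher and 3 lower with GC centring. Tomm34, which links HSP70 and HSP90 in import of mitochondrial proteins, was lower (-0.98, limma adjusted p = 0.00133). Aipl1 reached 1169.0 to 1379.2 TPM in rod TRAP and 588.8 to 740.2 TPM in retina, and did not differ between genotypes beyond the spread (0.00 in rod TRAP and -0.18 in retina, limma adjusted p = 0.996 and 0.734).

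J proteins outside the member set were mostly higher in rods, with 13 of 15 higher and 1 lower (median 0.77), but 5 higher and 2 lower with the authors' scaling only and 10 higher and 2 lower with GC centring. They were led by Dnajc13 (2.25, limma adjusted p = 3.21e-06), an endosomal J protein, Dnajc2 (2.08, 1.05e-05), which acts at the ribosome, and Dnajc21 (1.81, 0.000112), which acts in ribosome assembly, and Dnajb5 was lower (-0.84, 0.00186). Of 9 HSP70 exchange factors and partners, St13 (0.96, limma adjusted p = 0.000565), the HSP70-interacting protein HIP, and Bag5 (0.64, 0.00286) were higher (Bag5 was 0.10 with the authors' scaling only, 0.477), and the stress-inducible exchange factor Bag3 was lower (-3.22, 1.81e-06). Among 7 other HSP70 and HSP110 genes, Hspa1a, Hspa13 (1.34, limma adjusted p = 0.000242) and Hspa14 (1.24, 0.00011) were higher, and Hspa12b (-1.80, 4.82e-05), Hspa12a (-1.56, 0.000313) and Hspa1l (-0.90, 0.0167) were lower.

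Of the organelle chaperones, 6 of 7 were higher (median 1.14), 4 with the authors' scaling only and 6 with GC centring. Hsp90b1 (2.58, limma adjusted p = 1.69e-05), the HSP90 of the endoplasmic reticulum, Hspd1 (1.5, 3.47e-05), the mitochondrial HSP60, and Hspa5 (1.33, 5.21e-05), the HSP70 of the endoplasmic reticulum, led, and Hspe1, the partner of HSP60, was lower (-0.55, 0.0155). In the chaperonin and prefoldin list 9 of 14 were higher and 0 lower (median 0.67), led by the prefoldin subunit Vbp1 (1.84, limma adjusted p = 2.84e-05) and the chaperonin subunits Cct4 (1.20, 0.000133) and Cct6a (1.04, 0.000111). With the authors' scaling only, 4 of the 14 were higher and 3 lower, and with GC centring 5 were higher and 2 lower, with Vbp1 (0.41, limma adjusted p = 0.0748) and Cct4 (0.39, 0.0792) not called unless the block was added (0.00352 and 0.00729). Of 4 small heat shock proteins tested, 0 were higher and 3 lower: Cryab (-4.99, limma adjusted p = 0.0399), Hspb8 (-3.87, 2.92e-07) and Hspb1 (-2.55, 8.39e-06). Cryab varied widely within Abca4Ko retina, at 871, 14755 and 16978 scaled counts. Hspb8 (4, 2 and 5) and Hspb1 (2, 0 and 0) were near 0 scaled counts in Abca4Ko rod TRAP. With GC centring 1 of the 4 was higher, Hspb6 (1.05, limma adjusted p = 0.00164), and 3 were lower. Of the other heat shock factors, Hsf2 was higher (0.96, limma adjusted p = 0.000325) and Hsf4 lower (-3.92, 2.56e-07), but Hsf2 was not called with the authors' scaling only (0.43, 0.0543) and was lower with GC centring (-0.47, 0.0156). None of the 83 genes was called in either genotype comparison or in the interaction by limma.

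The genes most like Hsp90aa1 over the 12 libraries were its own copies Gm12346 (Pearson's r 0.9999) and Gm5844 (0.9994), whose sequence is too close to it to tell their reads apart over identical stretches. They were followed by Ssb (0.9989), the La RNA-binding protein, Cnga1 (0.9988), the rod channel subunit, and Wapl (0.9986), a cohesin release factor, out of 11132 genes. The points share libraries and depth, and nearly all of their spread is the difference between the fractions. Of the other members, Hspa4l was the most like it (0.99, rank 109), and Hsp90ab1 was opposite (-0.97).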

How the data were processed

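Retinal lysate and rod TRAP RNA (5 ng and 10 ng) was converted with a low-input cDNA kit and sequenced, with 12 libraries in all. The submitters' processing notes name CASAVA 1.8.2, HISAT2, DESeq2, edgeR and build GRCm39, with no role or order. The annotation and the treatment of reads that map to several places are not given in the sources used here. The authors deposited 2 tables. The first holds a score per gene, called scaled counts here: read counts that the authors multiplied by 1 factor per library, to totals of 17096515 to 17097707 in rod TRAP and 17860761 to 17862326 in retina, and rounded. The other deposited table gives a TPM value for each gene and library. Totals set by the authors hide the sequencing depth, so it is unknown and no counting interval is given.

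Libraries were brought to a common scale with trimmed-mean factors (TMM, trims 0.3 and 0.05) from all entries. Genes with at least 10 scaled counts in at least 3 libraries were tested on log2(CPM + 0.5) with limma 3.58.1 (trend, robust, two-sided) in R 4.3.3, with Benjamini-Hochberg adjustment over all genes tested and a threshold of 0.05. The added 0.5 shrinks the differences of weakly expressed genes. Each comparison used its own 6 libraries, and the interaction used all 12. The fits were tested on simulated data. That simulation held no trend with base composition and no general shift between fractions, so it cannot judge how these affect the results. The scores are not raw counts, so no count model was used. The members and gene lists were chosen with earlier results of these data known. All members were named. From each list the members called with the largest differences in the knockout fraction comparison, at most 3 in each direction, were named, with Aipl1 and Hspa1a always, and the 5 genes most correlated with Hsp90aa1 among those with a mean of at least 5 CPM. Gm15459, Gm8355 and Egr1 were singled out after their values were seen.

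Same-numbered libraries of the 2 fractions of a genotype deviated from their group means together (r 0.24 to 0.55 for all 6 pairs). Different-numbered libraries of the 2 fractions had r -0.59 to 0.35, so the ranges overlapped. The numbers may pair libraries across the fractions, which is an uncertain inference from the data. The main fits did not use this pairing, and the replicate block was run only as an alternative. With the block, the limma adjusted p of Hspa8 in the Abca4Ko fraction comparison was 0.0162 in place of 0.0363. That of Hsp90aa1 in the interaction was 0.175 in place of 0.407. Across genotypes, same-numbered libraries had r -0.51 to 0.03. Coding sequences, GC content and gene positions came from GENCODE M21 (GRCm38). Copies were found with BLAST 2.17.0 (at least 90% identity over at least 50% of the coding length), and the stretches were aligned with Biopython 1.88 in Python 3.11.15. GC content was known for 80.4 to 82.1% of tested genes. Alternatives covered scaling, pseudocount, filter, table, replicate block, single libraries and, added after seeing the data, GC content, copies, the partner lists under other scalings and both libraries labelled Abca4Ko replicate 3.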

Additional observations from a re-analysis of the deposited data

How the results depend on the processing

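For the 10 members, no alternative changed a call in the 2 genotype comparisons or the interaction, where 0 were called throughout. In the Abca4Ko fraction comparison, 8 members were called, but 5 with the authors' scaling only, 4 on log2(TPM + 1), and 5 to 7 when 1 library was left out (5 without the rod TRAP library labelled Abca4Ko replicate 3). Beside them, 30.4% of 16036 genes were called higher and 33.7% lower, or 14.2% and 48.7% with the authors' scaling only. All genes called fell from 10280 to 7233 on log2(TPM + 1), and to 6595 to 9820 with 1 library left out. The set of genes tested also differed in those fits, so no share of all genes is given for them. With the replicate number as a block alone it was the same 8, and 0 in the genotype comparisons and the interaction. Added to GC centring, the block raised 7 members called to 8, by Hsph1, and all genes called from 10531 to 11729. Across genotypes the numbers do not pair the libraries, and there the block gave 151 genes in rod TRAP and 46 in retina.

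Values of 8 members, not of Hsp90aa1 or Hspa4l, changed sign in some fit, and the cause was not tested. In rod TRAP between genotypes, Dnaja1 was 0 with the authors' scaling, -0.02 with all 12 libraries in one fit and -0.07 to 0.05 with 1 library left out, and on log2(TPM + 1) Hspa4 was -0.20 and Hsph1 -0.06. In retina between genotypes, leaving out 1 library gave -0.11 to 0.05 for Hsp90ab1, -0.10 to 0.01 for Hspa8, -0.03 to 0.10 for Hspa1b and -0.14 to 0.02 for Dnajb1. There GC centring gave -0.01 for Dnaja1 and 0.04 for Dnajb1, and adding copies 0.18 for Hspa8 and -0.02 for Hspa1b. In the Abca4Ko fraction comparison the authors' scaling gave Hspa8 -0.08, Dnaja1 -0.13, Dnajb1 -0.06 and Hsf1 -0.53, median-of-ratios scaling gave Hsf1 -0.09, log2(TPM + 1) gave Hsf1 -0.23, and leaving out 1 library gave Hsf1 -0.10 to 0.04. GC centring gave Dnaja1 -0.67 there, with and without the replicate block. In the interaction, GC centring gave Hspa1b -0.05 and Dnaja1 0.05, with and without the block, and Hspa1b was -0.03 without both libraries labelled Abca4Ko replicate 3 and up to 0.17 without 1 library. The log2 HSP90 ratio between genotypes was -0.13 to 0.01 in rod TRAP, and the summed TPM -95.1 to 258.5 in retina (-38.1 without control retina replicate 3), with 1 library left out.

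Among the 80 partner genes tested in the Abca4Ko fraction comparison, 44 higher and 11 lower became 23 and 28 with the authors' scaling, and 41 and 19 with GC centring. Counts of all genes called moved too. In rod TRAP 148 genes became 45 on log2(TPM + 1), 94 with all 12 libraries and 30 to 594 with 1 library left out. In retina 18 became 33 without a filter, 34 on log2(TPM + 1), 62 with all 12 libraries, 11 with GC centring and 1 to 21 with 1 library left out. In the interaction 1 became 4 on log2(TPM + 1) and 9 with GC centring and the replicate block, and in the Abca4Ko fraction comparison 10280 became 6595 without retina replicate 2. Scaled totals hide depth, so counting error could not be given.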
